A study of Drosophila melanogaster with 2 samples.

Results

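The 33 genes described here carry out lipid and sterol metabolism in Drosophila melanogaster, and they were examined for regions occupied by Hr39, a nuclear receptor of the NR5 family. They were taken from a list of names covering 5 steps: synthesis (12 genes), storage (7), breakdown (7), sterol trafficking (4) and phospholipids (3). All 33 names matched a gene among the 13945 protein-coding genes of the annotation. The assay was ChIP-seq (chromatin immunoprecipitation with sequencing), in which DNA bound by a protein is pulled down with an antibody and sequenced. The animals were white prepupae, the immobile stage that opens metamorphosis, of the strain Hr39-RC-GFP, with both sexes pooled. Hr39 was fused to GFP at its C terminus, and the label that describes the precipitation gives an anti-GFP antibody, while another label field lists the antibody as Hr39. There is 1 group, of replicate 1 and replicate 3, both biological replicates of the same transgenic line. No other genotype, stage or treatment was compared, and no precipitation from animals without GFP was analysed here, so signal that does not depend on Hr39 could not be told apart. Whole animals mix all tissues, and region lists hold no expression values, so neither the tissue in which a gene was occupied nor its transcription is known from them.

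Lipid stores matter at this stage because the prepupa does not feed and lives on reserves built up in the larval fat body. Fatty acids are made from acetyl-CoA, stored as triglyceride in lipid droplets, released by lipases and burned in mitochondria. Flies cannot make sterols, so they depend on dietary sterol moved between membranes by Niemann-Pick C (NPC) proteins, and the steroid hormone ecdysone is built from it. In mammals the NR5 receptors LRH-1 and SF-1 are known as regulators of bile acid, cholesterol and steroid hormone genes.

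A summit is the position of strongest signal in a region, and it was called a promoter peak of a gene when it lay within 1000 bp of any of its annotated transcript start sites. Other summits between the ends of the gene were called gene body peaks. The optimal list holds regions kept by the irreproducible discovery rate, a measure of how well ranks match between replicates. Of them, 7426 lay on the 6 chromosome arms. Rank 1 is the region with the highest signal in a list. The pooled list holds candidates from the pool of the replicates. At each member with an optimal peak, the strongest promoter and gene body peaks had the same rank and signal in the optimal and pooled lists. These lists are therefore not separate evidence. A place in the optimal list does not show a match in each replicate. The signal is the authors' value for each region, was not scaled to sequencing depth here, and was compared only within a list.

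The DNA under 8 summits is shown because 6 of them are the strongest promoter windows free of exons on 2L, 3L, 3R and X, taking 1 per gene, and 2 are gene body windows that hold a motif described below. Each is 101 bases of the plus strand of dm6, from the RefSeq Release 6 sequence, in lower case with the summit base in capitals. Capitals of more than 1 base mark a motif match, which is CAAGGCC in the bmm gene body window and TTTAAAA, spanning the summit, in the AcCoAS window.
Baldspot promoter, rank 520, chr3L:16660585-16660685: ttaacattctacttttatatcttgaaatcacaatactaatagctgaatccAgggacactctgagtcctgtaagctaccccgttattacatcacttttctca
SREBP promoter, rank 1024, chr3L:19794432-19794532: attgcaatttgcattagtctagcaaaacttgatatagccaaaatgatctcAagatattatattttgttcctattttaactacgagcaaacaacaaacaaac
bmm gene body, rank 1077, chr3L:14785002-14785102: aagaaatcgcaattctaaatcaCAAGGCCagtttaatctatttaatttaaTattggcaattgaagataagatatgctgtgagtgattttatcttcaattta
bmm promoter, rank 1175, chr3L:14785695-14785795: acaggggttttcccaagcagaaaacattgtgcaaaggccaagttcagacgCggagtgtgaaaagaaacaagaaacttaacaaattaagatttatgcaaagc
schlank promoter, rank 2211, chrX:6267531-6267631: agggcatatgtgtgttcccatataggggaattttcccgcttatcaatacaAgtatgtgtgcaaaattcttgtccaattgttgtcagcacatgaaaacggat
FASN1 promoter, rank 2469, chr2L:3056294-3056394: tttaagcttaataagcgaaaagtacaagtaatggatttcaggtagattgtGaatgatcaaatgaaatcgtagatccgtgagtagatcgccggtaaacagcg
Npc2b promoter, rank 2539, chr3R:14088951-14089051: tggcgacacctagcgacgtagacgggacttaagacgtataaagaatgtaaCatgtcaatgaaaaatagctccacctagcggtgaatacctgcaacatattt
AcCoAS gene body, rank 5155, chr3L:21273920-21274020: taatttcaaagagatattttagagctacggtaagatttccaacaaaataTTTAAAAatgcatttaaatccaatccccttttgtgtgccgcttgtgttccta

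Hr39 regions were present at the promoters of 20 of the 33 genes (60.6%), compared with 25.2% of all protein-coding genes. With gene bodies included, 21 members (63.6%) had an optimal peak, compared with 29.4% of all genes. The strongest were Lpin, a phosphatidate phosphatase that makes diacylglycerol for fat storage, at rank 100, eas, an ethanolamine kinase, at rank 398, and Baldspot, a fatty acid elongase, at rank 520. The 5 genes Npc1a, Npc1b, mag, ATPCL and Fpps had no summit at promoter or gene body in any of the 4 lists used. The members were chosen with earlier results of these data known, so these shares describe the list and no test was run over it.

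The count differed little between replicates. Candidate lists of single replicates, which reach down to weak regions, had a promoter summit at 25 members (75.8%) in replicate 1 and at 25 members (75.8%) in replicate 3. Over all genes the shares were 43.6% and 50.1%. Candidates of both replicates within 100 bp of each other lay at 23 member promoters (69.7%, compared with 31.5% of all genes). The 7426 strongest regions of replicate 1 gave 21 members (63.6%, compared with 24.4%), and those of replicate 3 gave 20 (60.6%, compared with 28.0%). In the pooled candidate list, 24 members (72.7%) had a promoter summit, compared with 43.5% of all genes. By step, an optimal promoter peak was present at 7 of 12 synthesis genes, 5 of 7 storage genes, 4 of 7 breakdown genes, 2 of 4 sterol trafficking genes and 2 of 3 phospholipid genes. The steps hold too few genes for their shares to be ranked.

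The members are longer and have more start sites than most genes, and both properties go with more promoter peaks across the genome. Their median length was 7291 bp, compared with 2166 bp for all protein-coding genes, and their median number of start sites was 2, compared with 1. Among genes with 1 start site, 7 of 16 members had a promoter peak, compared with 18.8% of 10246 genes. Among genes with 2 start sites the count was 5 of 8, compared with 36.6% of 2566 genes, and among those with 3 or more it was 8 of 9, compared with 57.3% of 1133 genes. By length, the counts were 5 of 11 members under 5 kb (21.1% of such genes), 9 of 14 between 5 and 10 kb (34.9%) and 6 of 8 of 10 kb or more (39.4%). The member share lay above that of all genes in each of these groups, and within each group of start sites the gap was smaller than over the whole list. How far gene structure accounts for the total was not tested.

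**Figure D1:**
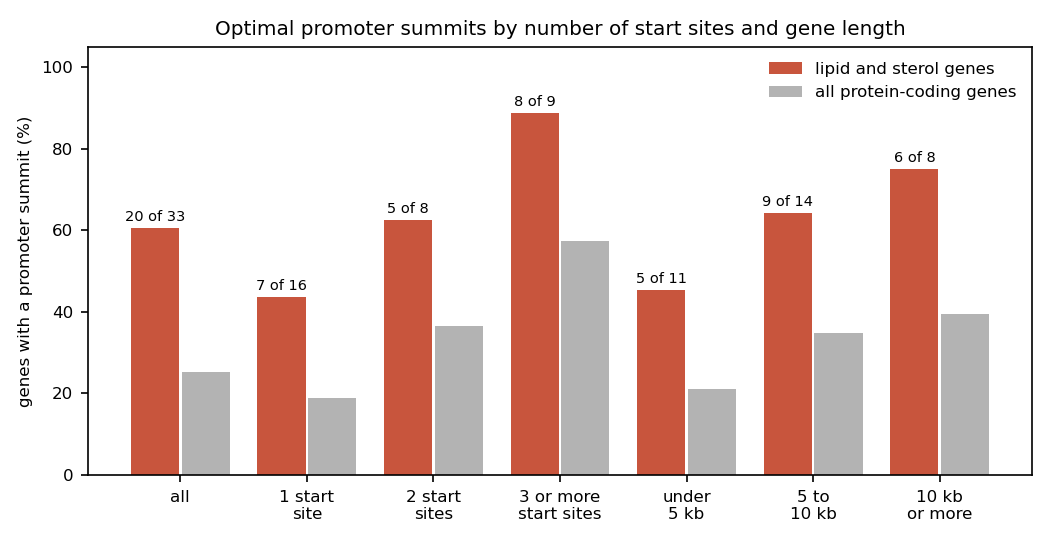
Share of genes with a promoter summit in the optimal list (percent) for the 33 lipid and sterol genes and for all protein-coding genes, over all genes and by number of start sites and gene length, with the member counts above the bars. The member bar is the higher in each group, from 7 of 16 beside 18.8% with 1 start site to 8 of 9 beside 57.3% with 3 or more.

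In synthesis, SREBP, the transcription factor that drives fatty acid synthesis genes, had a single optimal summit in its intron, 547 bp downstream of its start site. It ranked 1024 in the optimal list (signal 518), 970 in replicate 1 (252) and 1062 in replicate 3 (272). SCAP, the escort protein that SREBP needs for its processing, had no summit in the optimal list, the pooled list or replicate 1, and its best promoter candidate ranked 16082 in replicate 3. The factor was occupied in both replicates and its escort was listed weakly in 1.

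FASN1, the main fatty acid synthase, had its promoter summit 254 bp upstream of the start site, in the gap between the tandem genes FASN2 and FASN1. It ranked 2469 in the optimal list (signal 285), 2323 in replicate 1 and 2673 in replicate 3, and a gene body peak ranked 6770. The paralogs were listed only weakly. FASN2 had a pooled gene body candidate at rank 18795 and a promoter candidate at rank 18095 of replicate 1, and FASN3 had gene body candidates at rank 25419 of the pooled list and 29369 of replicate 1. The nearest optimal summit to a FASN3 start site was 249739 bp away.

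The enzymes that supply acetyl-CoA and commit it to fat differed. ACC, acetyl-CoA carboxylase, had 1 optimal summit at rank 3770 (signal 200; rank 3996 in replicate 1 and 3765 in replicate 3), 670 bp upstream of a start site that lies 4625 bp inside the gene. The start site of Nup44A, a nucleoporin gene, was nearer to it, at 555 bp. A second ACC region, 818 bp from a start site, ranked 3827 in replicate 1 and had no match in replicate 3 or the pooled list. AcCoAS, acetyl-CoA synthetase, had promoter peaks at ranks 2845, 5801 and 5912 and a gene body peak at 5155. The first of these ranked 3830 in replicate 1 and 2393 in replicate 3. ATPCL, ATP citrate lyase, had no candidate, and the nearest pooled summit was 6441 bp from its start sites.

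Baldspot, an elongase of very long chain fatty acids, had the third strongest promoter peak of the members. This summit, in region 16660336 to 16660784 of 3L, lay in the intron 980 bp downstream of the start site, just inside the limit of 1000 bp. It ranked 520 in the optimal list (signal 772), 476 in replicate 1 (381) and 555 in replicate 3 (393). A second promoter peak 191 bp upstream of the same start site ranked 3885, and a gene body peak ranked 6129. Desat1, the stearoyl-CoA desaturase, had promoter peaks at ranks 4022 and 5456, both at internal start sites, and the first ranked 5098 in replicate 1 and 3803 in replicate 3. In the mevalonate pathway, which in flies feeds isoprenoids and not sterols, Hmgs (HMG-CoA synthase) had a peak at rank 5187 (5424 in replicate 1 and 5231 in replicate 3), near a start site 3025 bp inside the gene. Fpps, farnesyl pyrophosphate synthase, had no candidate, and the nearest pooled summit was 8022 bp away.

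Storage held the strongest member peak. The Lpin summit (region 8146033 to 8146433 of 2R) lay in an intron, 239 bp upstream of an internal start site 10673 bp from the 5′ end of the gene. It had rank 100 in the optimal list (signal 1560), 124 in replicate 1 (signal 695) and 91 in replicate 3 (signal 866). The peak at the 5′ end of Lpin, 340 bp downstream of a start site at the same position as that of kermit, was weaker, at rank 2603, and a gene body peak ranked 2584. Acsl, a long-chain acyl-CoA synthetase, likewise had its best promoter peak at an internal start site, 4910 bp from the 5′ end, at rank 1117 (signal 492; 1249 in replicate 1 and 1096 in replicate 3). A further Acsl promoter peak ranked 4145 and 3 gene body peaks ranked 1132, 2064 and 7421.

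Seipin, which shapes lipid droplets as they form, had 1 peak 106 bp downstream of its start site, at rank 1430 (signal 419). It ranked 1839 in replicate 1 and 1156 in replicate 3, and the start site of the tetraspanin gene Tsp3A lay 167 bp from the summit. Fatp1, a fatty acid transport protein, had the only member peak in a coding exon. This peak ranked 4908 in the optimal list, 3347 in replicate 1 (signal 103) and 8385 in replicate 3 (signal 50.8), so the replicates placed it on either side of rank 7426. For mdy, the acyltransferase DGAT1 of the last step of triglyceride synthesis, the best promoter peak ranked 4201 (4417 in replicate 1 and 4843 in replicate 3). Further mdy promoter peaks ranked 7264 and 7276, near the end of the list, and a gene body peak ranked 3652.

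The perilipins, which coat lipid droplets, lay lower at their promoters. Lsd-2 (perilipin 2) was the 1 member with gene body peaks alone, at ranks 1530, 4862 and 5644. The strongest (signal 401) was in an intron 1139 bp downstream of the start site, just outside the promoter limit, and ranked 1549 in replicate 1 (signal 188) and 1515 in replicate 3 (signal 217). The other Lsd-2 peaks were nearer to the start site of dob, a lipase gene, at 2533 and 3208 bp. A promoter candidate of Lsd-2 ranked 8777 in the pooled list. Lsd-1 (perilipin 1) had no optimal peak, and its best promoter candidate ranked 9227 in the pooled list, 8759 in replicate 1 and 10448 in replicate 3. That summit lay 556 bp from the Lsd-1 start site and 38 bp from that of udt. A weaker candidate 61 bp upstream of the Lsd-1 start site ranked 13069 in the pooled list and 10586 in replicate 3, with no match in replicate 1.

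In breakdown, the lipase gene bmm, the fly ATGL that starts triglyceride release from droplets, had 2 promoter and 2 gene body peaks. Its strongest summit lay in the intron 1360 bp downstream of the start site, at rank 1077 (signal 502), with rank 1168 in replicate 1 (signal 224) and 1046 in replicate 3 (signal 274). A promoter peak in the same intron, 667 bp downstream, ranked 1175 (signal 476), with 1198 in replicate 1 (signal 220) and 1222 in replicate 3 (signal 250). The peak upstream of bmm, at rank 1824, was nearer to the start site of Tdrd3, at 60 bp, than to that of bmm, at 319 bp, and the last gene body peak ranked 3318. The other lipases stood lower. Lip4, an acid lipase homolog, had a peak 213 bp upstream of its start site at rank 3951 (3812 in replicate 1 and 4429 in replicate 3). Hsl, hormone-sensitive lipase, had no optimal peak, and pooled promoter candidates at ranks 10141, 10152 and 10728. The first ranked 7064 in replicate 3 and had no match in replicate 1, and the second lay 39 bp from the start site of Ate1. The gut lipase gene mag had no candidate, with the nearest pooled summit 7486 bp away.

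For mitochondrial oxidation, whd, the carnitine palmitoyltransferase that admits fatty acids to mitochondria, had a peak 157 bp upstream of its 5′ end at rank 1416 (signal 422). This peak ranked 1344 in replicate 1 and 1549 in replicate 3, and it overlapped the antisense RNA gene asRNA:CR45134. Further whd peaks ranked 5940 at a promoter and 2310 in the gene body. The subunits of the mitochondrial trifunctional protein, which carries out later steps of the cycle, differed between replicates. Mtpbeta had a peak 73 bp upstream of its start site at rank 2781, which ranked 4325 in replicate 1 (signal 80.1) and 2135 in replicate 3 (signal 174). Mtpalpha had no optimal peak. A region 81 bp from its start site ranked 3396 in replicate 1 (signal 101) with no match within 100 bp in replicate 3 or the pooled list, while replicate 3 had its best promoter candidate at rank 13621.

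Of the 4 sterol carrier genes, 2 had a promoter peak, both encoding NPC2 homologs, which are small sterol-binding proteins: Npc2b at rank 2539 (signal 279), 516 bp upstream of its start site, and Npc2a at rank 2698 (signal 267), 744 bp upstream. Npc2b ranked 2565 in replicate 1 and 2446 in replicate 3, and Npc2a ranked 2578 and 2544. The Npc2a summit lay in an intron of Got2, an aminotransferase gene, whose start site was nearer, at 212 bp. Neither of the NPC1 homologs, Npc1a and the gut homolog Npc1b, had a candidate in any list. The nearest pooled summit was 18297 bp from the start sites of Npc1a and 12814 bp from those of Npc1b. Of the 6 further NPC2 homologs in the separate list of lipid genes given last, 5 (Npc2c, Npc2d, Npc2e, Npc2f and Npc2g) had no optimal peak. Thus 3 of 8 NPC2 genes had one, beside 29.4% of all genes with an optimal peak at promoter or gene body. These genes are too few for the NPC2 and NPC1 shares to be told apart.

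Among phospholipid genes, eas, the ethanolamine kinase that starts phosphatidylethanolamine synthesis, had 3 promoter peaks. The strongest lay 946 bp downstream of a start site in region 16279324 to 16279697 of X, at rank 398 (signal 876), with rank 331 in replicate 1 (signal 451) and 464 in replicate 3 (signal 435). The others ranked 1498 and 4729. A gene body peak at rank 5459 was nearer to the start site of UQCR-14, at 937 bp. Pect, the enzyme that follows eas in the same pathway, had no optimal or pooled peak, and a gene body candidate at rank 13500 in replicate 3 alone. For schlank, a ceramide synthase, the stronger peak was in the gene body, 1612 bp downstream of the start site, at rank 692 (signal 657), with rank 754 in replicate 1 and 650 in replicate 3. Its promoter peak, 353 bp upstream at rank 2211, was nearer to the start site of the elongation factor gene Spt6, at 216 bp.

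**Figure D2:**
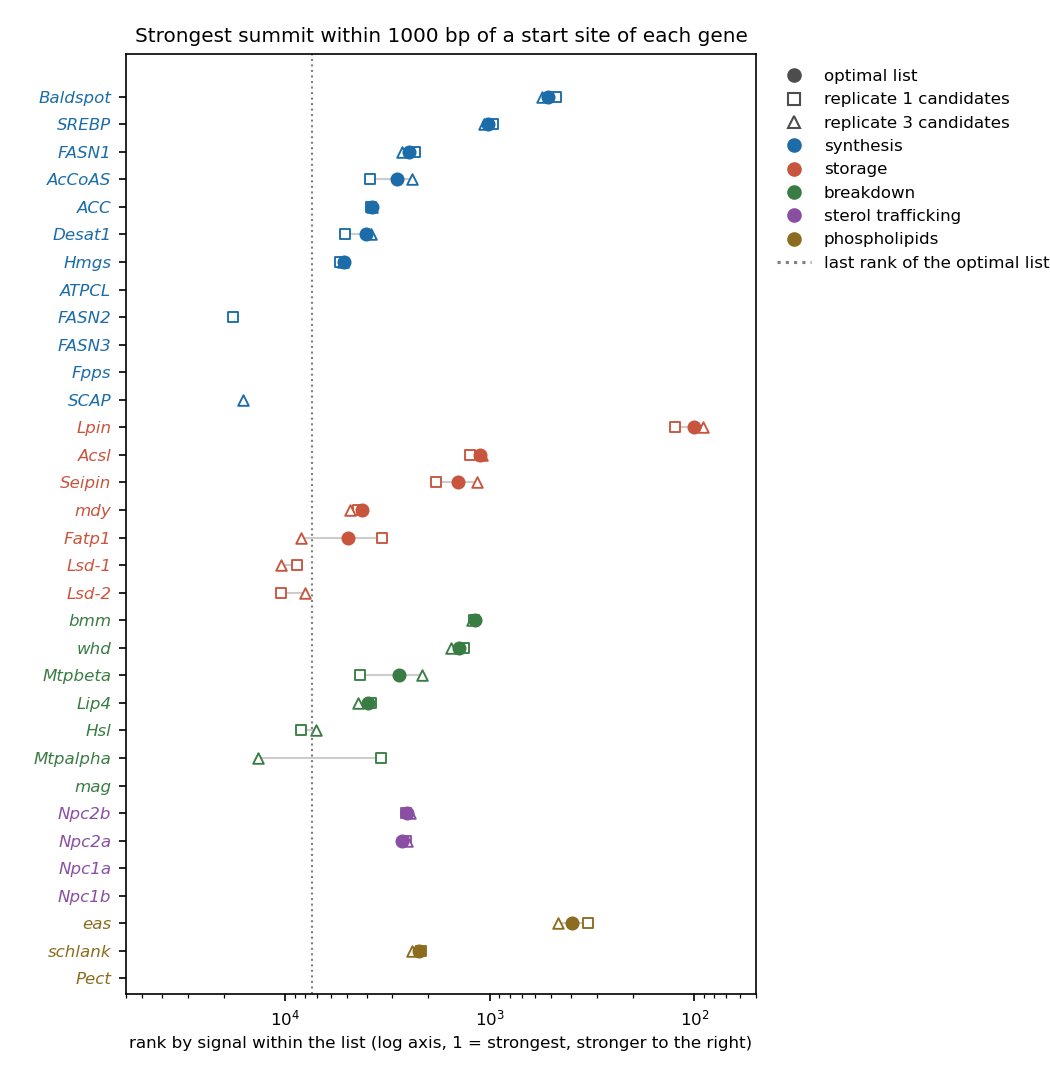
Rank of the strongest promoter summit of each member (log axis, rank 1 at the strongest) in the optimal list and in each replicate, grouped and coloured by step, with a dotted line at the last rank of the optimal list. The strongest candidate of each list need not be the same summit. The points of Lpin, eas and Baldspot lie at the strong end in both replicates, and those of Fatp1 and Mtpalpha lie far apart.

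In strength the member peaks lay near those of other genes in the optimal list. The median rank of the best promoter peak was 2504 over the 20 members that had one, beside 2648 over the 3514 genes that had one. In the stronger part of the list, above the median signal, lay 14 of the 20, beside 63.3% of those genes. A promoter peak within the strongest 742 regions was present at 3 of 33 members, compared with 4.44% of all genes. The Lpin summit lay 239 bp from a start site. Those of eas and Baldspot lay 946 and 980 bp away, near the limit of 1000 bp. Several peaks at 1 gene were more frequent than over all genes. Of the 33 members, 9 (27.3%) had 2 or more promoter peaks, compared with 5.33% of all genes. Among genes with any promoter peak, these were 9 of 20 members and 743 of 3514 genes. Over promoter and gene body, 9 of the 33 had 3 or more peaks, compared with 4.83%. The members are longer and have more start sites than most genes, and these counts were not split by either property. At 4 of the 21 members with a peak, schlank, bmm, Lsd-2 and mdy, the strongest summit was in the gene body, beside 21.7% of 4095 genes.

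The 48 member peaks, 32 at promoters and 16 in gene bodies, lay mostly in introns, counting those of any gene. An intron held 30 of them, a UTR or non-coding exon 9, a coding exon 1, and 8 lay between genes. This split was not made over all optimal regions. The mdy promoter peaks at ranks 4201 and 7276 lay upstream of mdy in an intron of CG13280, and the Npc2a peak in one of Got2. Of the promoter peaks alone, 53.1% were in introns, beside 35.7% of the 3203 promoter peaks of all protein-coding genes, and 25.0% were intergenic, beside 46.7%. The median distance from a member promoter peak to the nearest start site of any protein-coding gene was 262 bp, beside 184 bp for all promoter peaks, and 59.4% lay upstream of it, beside 76.5%. Of the 13 members with several start sites and a promoter peak, 6 (Lpin, Acsl, ACC, AcCoAS, Desat1 and Hmgs) had their best peak nearest a start site over 1000 bp inside the gene, beside 25.6% of 1587 such genes. Counting only the gene's 5′ end left 16 members with a promoter peak, without ACC, Acsl, Desat1 and Hmgs.

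Neighbouring protein-coding genes, with a start site within 1000 bp of the summit, shared 8 of the 32 promoter peaks (25.0%, beside 36.1% of all promoter peaks). At 4 of these, in ACC, bmm, Npc2a and schlank, the start site of the other gene was nearer. When each summit was given only to the protein-coding gene with the nearest start site, a rule added after the data were seen, 17 members (51.5%) had a promoter peak, compared with 19.0% of all genes. ACC, Npc2a and schlank were the members lost. Which gene a shared peak bears on cannot be told from the lists.

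**Figure D3:**
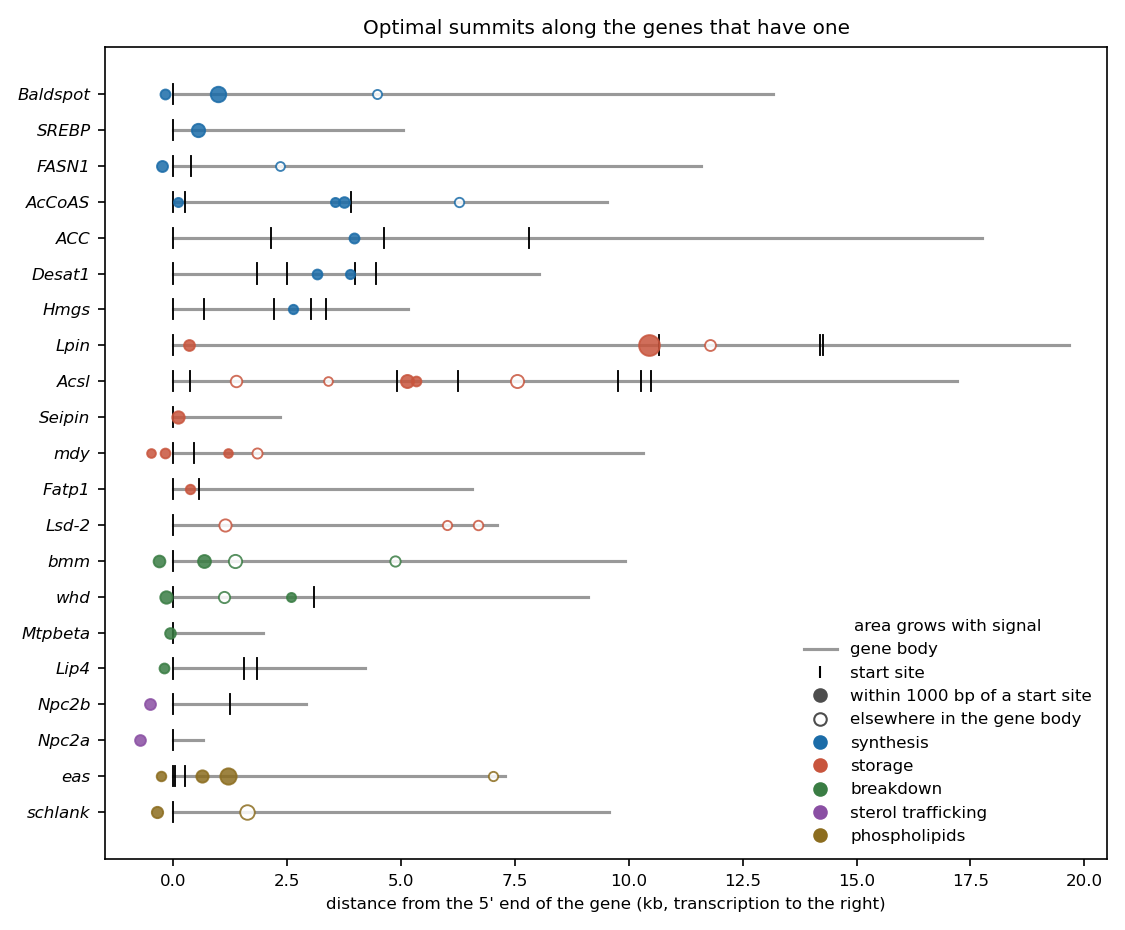
Position of every optimal summit of the 21 members with a peak, as distance in kb from the 5′ end of the gene, with grey lines for gene bodies and ticks for start sites. Filled points lie within 1000 bp of a start site, open points elsewhere in the gene, colour gives the step and area grows with signal. The largest point, of Lpin, stands beside a start site 10673 bp inside the gene, and Seipin, Mtpbeta and Npc2b each have a single point near the 5′ end.

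Most member peaks were found by both replicates. Of the 48, 46 had a candidate of each replicate within 100 bp, beside 93.6% of all 7426 optimal regions. The exceptions were the Acsl peak at rank 7421, with no match in replicate 1, and the Lsd-2 peak at rank 5644, with none in replicate 3. A replicate 3 region at rank 6200 did span that Lsd-2 summit, but its own summit lay just outside the limit of 100 bp. The median absolute log2 ratio of the replicate ranks was 0.22 over the 46 member peaks and 0.29 over 6952 regions. The rank correlation (Spearman) was 0.856 over the 46 peaks and 0.882 over the 6952, across regions of the same libraries, which are not independent. Optimal regions were kept by a measure of rank match between replicates. The matched share, rank ratio and correlation are thus partly set by that choice and are not separate evidence of agreement. Of the member peaks, 22 ranked better in replicate 1 and 24 in replicate 3, while 54.9% of the 6952 regions ranked better in replicate 1. Their summits lay a median of 9.5 bp from the optimal summit in replicate 1 and 6 bp in replicate 3. Some closely spaced summits are separate entries of overlapping regions. Over the whole optimal list 244 neighbouring summits stood 190 to 210 bp apart and 0 closer, and an AcCoAS and an Acsl peak overlapped a stronger region, at 201 and 199 bp.

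**Figure D4:**
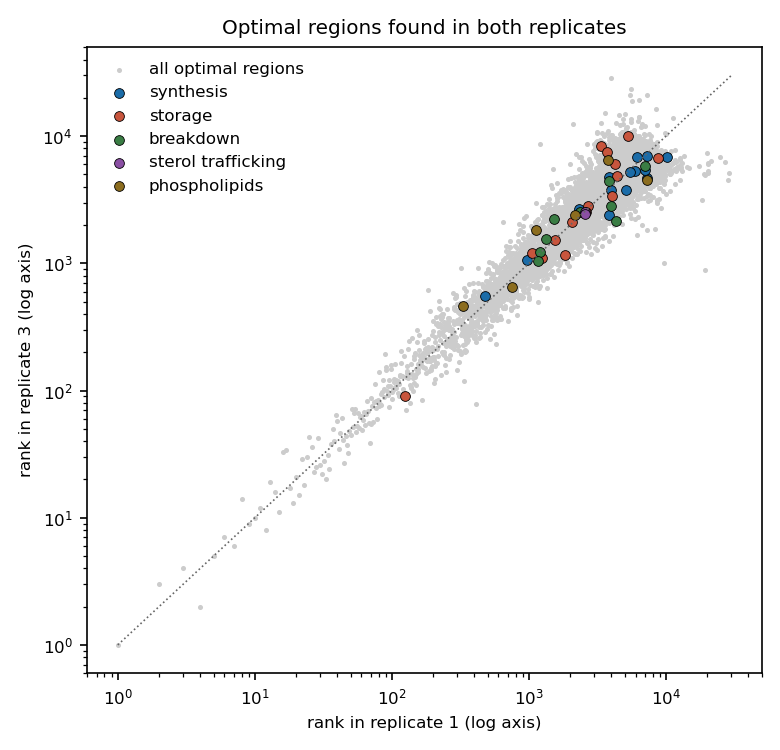
Rank in replicate 3 against rank in replicate 1 (both log axes) for the 46 member peaks matched in both, coloured by step, with all matched optimal regions in grey and equal ranks on the dotted line. The Lpin peak (124 and 91) is the strongest member in both, and the Fatp1 peak (3347 and 8385) and the Mtpbeta peak (4325 and 2135) lie away from the line.

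The base composition at the member summits was like that of the other summits. Within 50 bp of the summit, GC content was 36.0% ± 8.4 (SD, n = 48 summits), beside 33.9% ± 8.1 (SD, n = 7426) at all optimal summits. Windows 500 bp to each side held 43.6% at members and 43.8% at all summits, so mean GC content was lower at summits in both sets. Of the 48 member summits, 35 were below their own flanks, a count that was not made for all summits. Motifs were searched on both strands within 50 bp of each summit. CAAGGNC, the core of the element that NR5 receptors bind, was found at 1 of 48 member summits, the bmm gene body summit shown above, beside 2.06% of all summits and 2.92% of flanking windows. TTTAAAA was found at 4 member summits (8.33%, in AcCoAS, Acsl, Desat1 and eas), beside 13.7% of all summits and 4.40% of flanking windows. GAGAGAG was found at the Npc2a summit, beside 0.929% of all summits and 2.55% of flanking windows. AGGTCA, a nuclear receptor half-site, was found at 0 member summits, beside 1.99% of all summits and 2.42% of flanking windows. The DREF element TATCGATA (1.23% of all summits and 0.222% of flanking windows), the E-box CACGTG (0.633% and 1.27%) and the core promoter motif GGTCACAC (0.687% and 0.222%) were likewise found at 0 member summits. Within 100 bp, AGGTCA was found at 3 member summits (6.25%, in Lpin, Npc2a and mdy), beside 4.31% of all summits and 4.76% of flanking windows. TTTAAAA was found at 12 (25.0%), beside 23.4% and 8.86%. For AGGTCA and TTTAAAA the order of members and all summits thus turned with the window. In the same window CAAGGNC was found at 2 member summits (4.17%, in bmm and Npc2a), beside 3.68% and 5.97%. GAGAGAG was also found at 2 (4.17%, in AcCoAS and Npc2a), beside 2.87% and 4.87%.

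Other genes of the same pathways, listed separately, had peaks too. Of 67 further lipid genes, 66 matched the annotation, and 31 (47.0%) had an optimal promoter peak, beside 25.2% of all genes. By step the counts were 3 of 8 for synthesis, 9 of 18 for storage, 5 of 11 for breakdown, 2 of 8 for sterol trafficking and 12 of 21 for phospholipids. The best ranks in synthesis were those of bigmax (953) and Mondo (4483), partners in a sugar-sensing transcription factor, and of qm (5136). In storage they were Mtp (870), the microsomal triglyceride transfer protein that loads lipoproteins, Fatp2 (904) and Gpat4 (1447), a glycerol-3-phosphate acyltransferase. In breakdown, Mcad, an acyl-CoA dehydrogenase gene, ranked 674 and ScpX ranked 2023. In sterol trafficking the peaks were those of Hr96 (586), a nuclear receptor that controls cholesterol and triglyceride balance, and Npc2h (5052), the 1 of 6 further NPC2 homologs with a peak. Phospholipid genes were led by PAPLA1 (170), a phospholipase A1, Pss (359), phosphatidylserine synthase, and Sk2 (589), a sphingosine kinase.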

How the data were processed

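ChIP-seq region lists of 2 replicates of 1 group were used, all on dm6. The deposited library notes state that each candidate list used alignments of a single replicate, or of the pool, together with 1 control alignment, and that the optimal list was thresholded on the irreproducible discovery rate. For aligner and peak caller, names were not given in the sources used here, and the control was not analysed here. Each region carries a signal from the authors, used here for ranking inside its own list alone. The lists hold no read counts, so sequencing depth is unknown and no counting interval is given. The 4 lists held 7444 (optimal), 28773 (pooled), 30000 and 30000 regions, of which 7426, 28752, 29999 and 29972 lay on the arms used.

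Start sites, gene bodies and exons came from Ensembl release 115. Summits within 1000 bp of a start site, or within 100 bp of each other between lists, were matched, and motifs were searched within 50 bp of summits. Analyses used Python 3.11.15, numpy 2.4.6, pandas 2.3.3, scipy 1.17.1 and matplotlib 3.10.9, and the counting of summits was tested on simulated data. Members, further lipid genes and motifs were chosen with earlier results of these data known. Every member is accounted for. Of the further genes, up to 3 per step with the best promoter ranks are named, except 1 that is not reported here, and neighbours mostly where their start site lay nearer. In the further list 3 synonyms were replaced by current symbols, and 1 name matched no gene. Alternatives were distances of 500 and 2000 bp, the 5′ end alone, regions above the median signal, overlap in place of summits, each replicate alone, summit matches within 50 and 200 bp, and motif windows of 100 bp.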

Additional observations from a re-analysis of the deposited data

How the results depend on the processing

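The count of members with a promoter peak ran from 14 to 21 over the alternatives beside 20 as reported. It was 16 within 500 bp, 21 within 2000 bp, 16 with the 5′ end alone, 14 among regions above the median signal and 21 by overlap of regions, with 21.3%, 31.2%, 23.2%, 16.0% and 26.2% of all genes beside these counts. The strongest regions of a single replicate gave 20 (without replicate 1, losing Fatp1 and gaining Hsl) and 21 (without replicate 3, gaining Mtpalpha). With gene bodies the count ran from 16 (above the median signal, 19.4% of all genes) to 22 (without replicate 3, 28.7%). Within 2000 bp it was 21, beside 33.9% of all genes. The median rank of the best promoter peak was 2625 within 500 bp and 2469 within 2000 bp, beside 2504 as reported. Over all genes with a promoter peak it was 2700, 2567 and 2648. In the list of replicate 3 alone it was 2391 for members and 2924 for all such genes, and in that of replicate 1 alone 2565 and 2578. The both-replicate count was 21 with summits matched within 50 bp and 23 within 200 bp, beside 27.2% and 32.9% of all genes. Members with any motif match rose in number from 6 to 12 when the window was widened from 50 to 100 bp, which by construction holds more sequence. No paired analysis was possible because the samples form 1 group. The AGGTCA and TTTAAAA shares of member summits went from below to above those of all summits (0 and 8.33% at 50 bp, 6.25% and 25.0% at 100 bp). Without read counts, weak candidates cannot be weighed against depth. Absence from a list does not show a signal below its lowest value: regions of replicate 1 at Mtpalpha (signal 101) and ACC (signal 90.2) are missing from the pooled list, whose lowest signal is 21.49, and the cause was not tested.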
